A study of Mus musculus with 6 samples.

Results

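Neat1 and Malat1 are neighbouring long non-coding RNAs (lncRNAs) that stay in the nucleus, and they were examined here together with 6 genes for proteins of the paraspeckle, Sfpq, Nono, Pspc1, Rbm14, Hnrnpk and Tardbp. These 8 genes, of 40803 genes in the count table, were chosen by the change of Neat1 in this same comparison, with the other 7 added for their known relation to it. All 8 passed the filter on low counts and were among the 16327 genes tested. Because Neat1 was selected on its difference between the groups, its values are given as a description and without a test.

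Liver RNA of 6 C57BL/6J mice was sequenced, with 1 library per mouse. The male mice were about 6 weeks old when they received recombinant adeno-associated virus of serotype 8 (rAAV8) by the tail vein, and livers were taken 4 weeks later from normally fed animals. In the rAAV8-sh-Hnf1aos1 group (3 mice, called knockdown below) the virus carried a short hairpin RNA against the lncRNA Hnf1aos1 under a U6 promoter, and in the rAAV8-sh-scramble group (3 mice, called scramble) it carried a scrambled hairpin, so both groups held the virus and its EGFP reporter. No group without virus was analysed here, and the U6 promoter is not limited to 1 cell type.

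A paraspeckle is a body in the nucleus that forms around the long isoform of Neat1. SFPQ, NONO and PSPC1, which pair with one another through related RNA-binding domains, coat the RNA, and RBM14 joins subunits of the body together. HNRNPK favours the long isoform by holding back the early polyadenylation site that ends the short one, and TDP-43, the product of Tardbp, binds UG-rich stretches in Neat1 and favours the short isoform. Malat1 is made from the same stretch of chromosome and gathers in nuclear speckles, the neighbouring bodies that hold splicing factors. The 3′ ends of Malat1 and of the long Neat1 isoform are not made by the usual polyadenylation. RNase P cuts off a small tRNA-like RNA there, and the end that remains folds into a triple helix of U-rich and A-rich stretches.

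In GRCm38, with positions taken from GENCODE M21 by symbol, Neat1 lies on the minus strand at chr19:5824708-5845478 and Malat1 on the same strand at chr19:5795690-5802672, with 22035 bases between them. GENCODE lists a Neat1 transcript of 20771 bases and one of 3004 bases that shares its 5′ end, and a Malat1 transcript of 6983 bases. The deposited tables hold 1 value for the whole gene, so the isoforms of Neat1 cannot be told apart. The sequences below, read 5′ to 3′ from the GRCm38 reference and not from the mice, show what the RNAs share where they end. Capitals mark runs of at least 10 bases common to both 3′ ends.
Neat1 3′ end, chr19:5824708-5824807, minus strand: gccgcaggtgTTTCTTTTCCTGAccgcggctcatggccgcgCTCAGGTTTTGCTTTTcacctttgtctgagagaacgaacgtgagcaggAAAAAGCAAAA
Malat1 3′ end before its tRNA-like RNA, chr19:5795982-5796081, minus strand: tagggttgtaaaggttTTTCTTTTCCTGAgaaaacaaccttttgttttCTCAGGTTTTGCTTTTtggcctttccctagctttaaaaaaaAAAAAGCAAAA
The 3 shared runs are 13, 16 and 11 bases long, the first 2 U-rich (T in the genomic sequence) and the last A-rich, and they stand in the same order in both RNAs. The small RNAs cut off downstream are shown next, with capitals for shared runs of at least 8 bases.
Neat1 tRNA-like RNA (Gm27702), chr19:5824652-5824707, minus strand: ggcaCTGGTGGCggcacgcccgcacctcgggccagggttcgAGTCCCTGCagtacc
Malat1 tRNA-like RNA (Mascrna), chr19:5795924-5795981, minus strand: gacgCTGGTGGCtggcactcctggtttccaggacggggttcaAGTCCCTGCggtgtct
In an alignment of 58 positions, 40 were identical (69.0%). Mascrna had a row in the count table with 0 counts in all 6 libraries. Its 58 bases lie inside the Malat1 gene, and how reads lying in both genes were counted is not known here. The 0 counts therefore set no limit on its level.

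UG repeats, the kind of stretch that TDP-43 prefers, were searched as TGTGTG on the transcript strand without overlap. The long Neat1 transcript held 33, or 1.59 per kb, a density reached by 11.2% of the 3828 lincRNA transcripts of at least 1000 bases. The short Neat1 transcript held 3 (0.999 per kb, reached by 26.4%) and Malat1 held 3 (0.430 per kb, reached by 58.8%). These matches describe the letters and are not measured binding sites.

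The libraries held 14704746 to 19462398 gene counts. The targeted lncRNA, Hnf1aos1, had normalized counts (raw counts scaled by TMM to a common library size) of 512, 491 and 620 in scramble replicates 1, 2 and 3 and of 278, 258 and 433 in knockdown replicates 1, 2 and 3. The groups did not overlap. Its log2 fold change was -0.74 ± 0.195 (SE, n = 3 per group) with an adjusted p of 0.0625 by the quasi-likelihood test of edgeR, adjusted over all genes tested after Benjamini and Hochberg, just outside the threshold of 0.05. Without knockdown replicate 3, which stood highest of its group, the log2 fold change was -1.01. The liver label was met by the hepatocyte markers, of which Alb (serum albumin) held normalized counts of 820185 to 1052390.

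Neat1 was the member that set the groups apart. Its normalized counts were 77561, 62931 and 85680 in scramble replicates 1, 2 and 3 and 18930, 21210 and 22740 in knockdown replicates 1, 2 and 3. The highest knockdown library lay far below the lowest scramble library, and the spread within each group was small beside that gap. The mean was 75391 ± 11529 (SD, n = 3) in scramble and 20960 ± 1917 (SD, n = 3) in knockdown. Knockdown thus held 27.8% of the scramble level, a log2 fold change of -1.85 ± 0.138 (SE) with a 95% confidence interval of -2.15 to -1.54. In bulk RNA, fewer cells that express a gene and less of its RNA per cell cannot be told apart.

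Neat1 was among the genes with the most counts in these scramble livers, where counts are not corrected for its length. It took 0.457%, 0.370% and 0.530% of all gene counts in scramble replicates 1, 2 and 3 and ranked 25, 28 and 18 among all genes by count. In knockdown replicates 1, 2 and 3 it took 0.110%, 0.119% and 0.129% and ranked 90, 87 and 78. Per length, on the authors' TPM values explained below, it stood further down. There it ranked 200, 247 and 166 in scramble replicates 1, 2 and 3 and 824, 772 and 708 in knockdown replicates 1, 2 and 3. Of the 94 genes with an average log2 CPM (counts scaled to library size) of at least 10, Neat1 had the lowest log2 fold change and was the 1 gene below -1, while 4 were above 1. The next lowest among them was Scd1, a fatty acid desaturase, at -0.87. This ranking describes the gene that chose the set and is not a test of it.

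**Figure D1:**
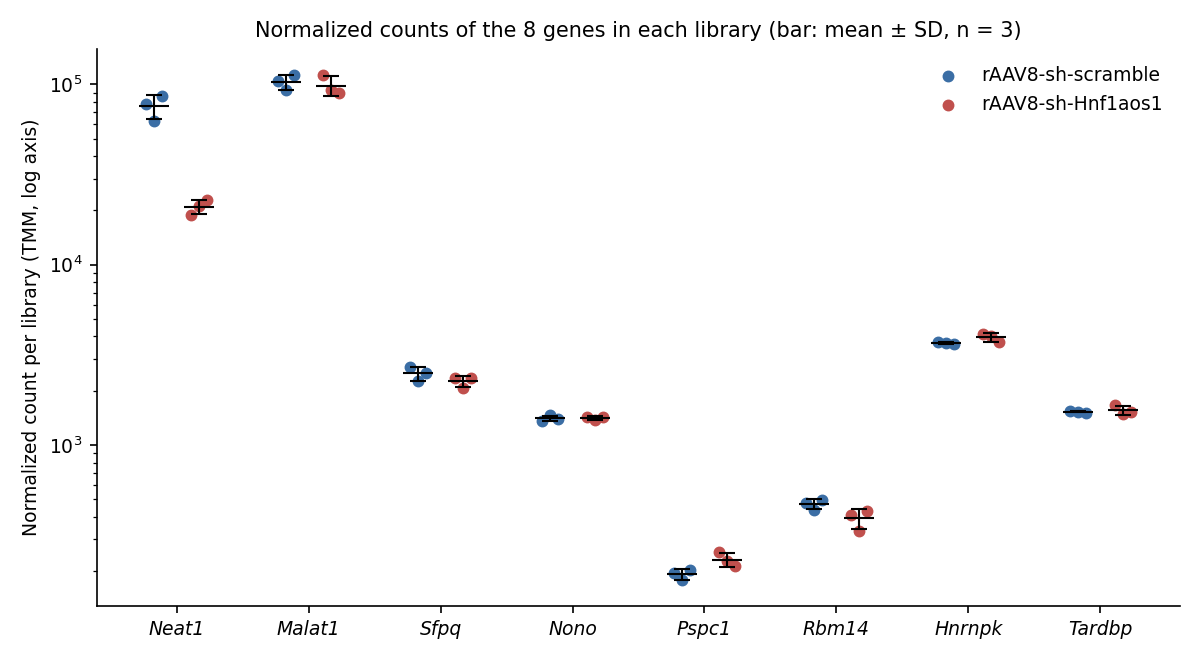
Normalized counts (log axis) of the 8 genes, with 1 point per library (blue rAAV8-sh-scramble, red rAAV8-sh-Hnf1aos1) and bars for the mean ± SD (n = 3 per group). Neat1 shows the wide gap, from 62931 or more in scramble to 22740 or less in knockdown, while the Malat1 points of both groups lie between 89951 and 112729.

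Malat1, the neighbour that ends in the same kind of structure, had overlapping groups. Its normalized counts were 104269, 92439 and 112689 in scramble replicates 1, 2 and 3 and 112729, 92681 and 89951 in knockdown replicates 1, 2 and 3. The highest and the lowest of the 6 libraries were both knockdown libraries. Its log2 fold change was -0.07 ± 0.130 (SE, n = 3 per group), with a 95% confidence interval of -0.35 to 0.22 and an edgeR adjusted p of 0.801. It did not pass the threshold, and the interval spans 0.784-fold to 1.16-fold of the scramble level, so a change as large as that of Neat1 lay far outside it.

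Levels of different genes were compared per length, on the authors' TPM (a level per transcript length and library size) values. Malat1 stood at 1928 ± 242 TPM in scramble and 1748 ± 282 TPM in knockdown, and Neat1 at 474 ± 84.7 TPM and 125 ± 8.19 TPM (SD, n = 3 each). The ratio of Malat1 to Neat1 was 4.0, 4.37 and 3.91 in scramble replicates 1, 2 and 3 and 17.7, 13.0 and 11.8 in knockdown replicates 1, 2 and 3. The mean log2 ratio was 2.03 ± 0.0844 in scramble and 3.80 ± 0.308 in knockdown (SD, n = 3 each), a difference of 1.77, which does not depend on how the libraries were scaled. Within the scramble group both RNAs were lowest in replicate 2 and highest in replicate 3. Within the knockdown group Malat1 was highest in replicate 1, where Neat1 was lowest. The TPM values imply a Neat1 length of 20773 bases, that of the full gene, so reads of the short isoform were divided by the long length.

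**Figure D2:**
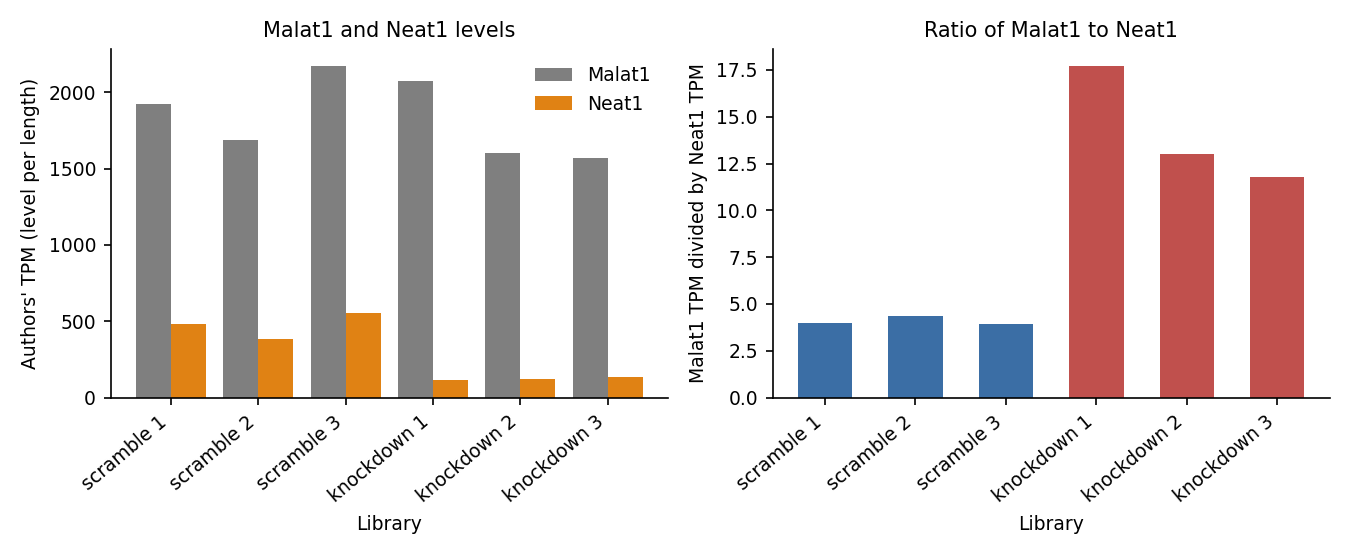
Left, the authors' TPM of Malat1 (grey) and Neat1 (orange) in each of the 6 libraries; right, the ratio of the 2 values, blue for scramble and red for knockdown. The ratio lay between 3.91 and 4.37 in scramble and between 11.8 and 17.7 in knockdown, while the Malat1 bars were of similar height in both groups.

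In scramble the order of the 8 genes per length was Malat1, Neat1, Hnrnpk, Nono, Tardbp, Sfpq, Rbm14 and Pspc1. Tardbp and Sfpq overlapped in their TPM values, and the other neighbours in that order did not. In knockdown the order was Malat1, Hnrnpk, Neat1, Nono, Tardbp, Sfpq, Rbm14 and Pspc1, with overlap between Hnrnpk and Neat1 and between Rbm14 and Pspc1. Neat1, at 386 to 555 TPM in scramble, had been well above Hnrnpk at 136 to 141 TPM. In knockdown its 117 to 133 TPM met the 131 to 153 TPM of Hnrnpk.

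None of the other 7 members was called (0 of 7 at an adjusted p under 0.05, where 6.32% of all genes tested were called), and 2 of them, Pspc1 and Rbm14, had an unadjusted p under 0.05. The same 2 were the members whose groups did not overlap, which held for 28.9% of all genes tested. Counts at an unadjusted p, here and below, are given without the share of all genes tested and are not read against a background.

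The core paraspeckle proteins come first. Sfpq, which is needed for paraspeckles to form, had normalized counts of 2703, 2270 and 2513 in scramble and 2366, 2063 and 2343 in knockdown (replicates 1, 2 and 3 of each). The groups overlapped, with a log2 fold change of -0.14 ± 0.0988 (SE, n = 3 per group), a 95% interval of -0.36 to 0.07 and an edgeR adjusted p of 0.406. Nono, its usual partner, showed the least difference of all members.

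The normalized counts of Nono were 1365, 1460 and 1402 in scramble and 1430, 1375 and 1436 in knockdown. The log2 fold change was 0.00 ± 0.0813 (SE), with a 95% interval of -0.17 to 0.18 and an edgeR adjusted p of 0.978. Pspc1, the third protein of this family and the least abundant member, pointed upward without passing the threshold. Its normalized counts were 195, 178 and 203 in scramble and 255, 228 and 213 in knockdown. The groups did not overlap, although scramble replicate 3 and knockdown replicate 3 were close. The log2 fold change was 0.27 ± 0.123 (SE), with a 95% interval of 0.00 to 0.54, an unadjusted p of 0.0494 and an edgeR adjusted p of 0.212.

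Rbm14, which bridges the subunits of the body and lies 1013073 bases from Neat1 on chromosome 19, pointed downward. Its normalized counts were 480, 438 and 498 in scramble and 412, 335 and 432 in knockdown. The groups were separated by a narrow gap, between 438 and 432. The log2 fold change was -0.26 ± 0.115 (SE, n = 3 per group), with a 95% interval of -0.52 to -0.01, an unadjusted p of 0.0415 and an edgeR adjusted p of 0.193.

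The regulators of isoform choice had small differences. Hnrnpk, which favours the long isoform, had normalized counts of 3741, 3686 and 3617 in scramble and 4114, 4049 and 3716 in knockdown, so that knockdown replicate 3 fell within the scramble range. Its log2 fold change was 0.11 ± 0.0881 (SE), with a 95% interval of -0.09 to 0.30 and an edgeR adjusted p of 0.506. Tardbp, whose protein favours the short isoform, had 1539, 1529 and 1516 in scramble and 1668, 1481 and 1533 in knockdown. The scramble libraries lay within the knockdown range, and the log2 fold change was 0.03 ± 0.0846 (SE), with a 95% interval of -0.16 to 0.22 and an edgeR adjusted p of 0.866. All 95% intervals of the 7 members lay within -0.52 and 0.54 on the log2 scale, so differences beyond these limits are outside the intervals for every one of them.

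**Figure D3:**
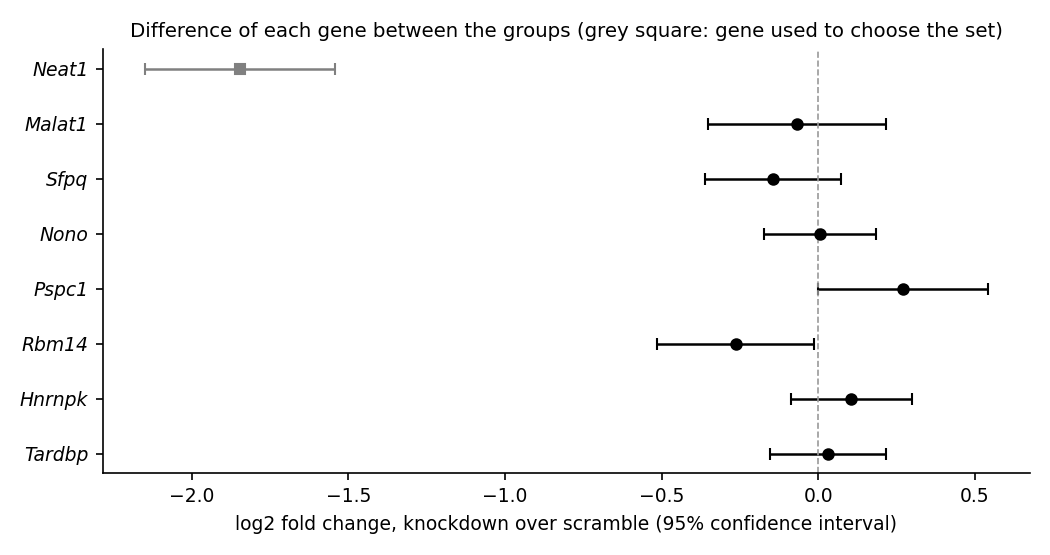
Log2 fold change of each gene, knockdown over scramble, with its 95% confidence interval from the edgeR fit (n = 3 per group); the grey square is Neat1, whose difference chose the set. Neat1 stands at -1.85, and the intervals of the other 7 genes lie between -0.52 and 0.54.

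These fold changes are relative to the bulk of the RNA. Synthetic ERCC spike-in RNAs took 1.46% ± 0.0727 (SD, n = 3) of all counts in scramble and 1.21% ± 0.0324 in knockdown, an exact two-sided permutation p of 0.1, the smallest that 3 against 3 can give. With library sizes taken from the spike-ins, the median over all genes tested moved up by 0.20 on the log2 scale. On that scale Malat1 was at 0.14 and Sfpq at 0.06, with the sign turned, and Pspc1 and Hnrnpk passed the threshold at 0.47 (adjusted p = 0.0204) and 0.31 (adjusted p = 0.046). Relative to the median of all genes the values were -1.84 for Neat1, -0.07 for Malat1, 0.27 for Pspc1 and 0.10 for Hnrnpk. Taking off that median removes the spike-in shift by design, so values close to those above had to follow. They do not bear on the calls of Pspc1 and Hnrnpk with spike-in sizes.

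Other genes of the same nuclear bodies were read from lists, each by its called genes beside the background of all genes tested. Of all genes tested, 3.09% were called higher and 3.23% lower (505 and 527 genes, against 319 and 729 with library totals and 3033 and 360 with spike-in sizes). Of 18 other paraspeckle proteins, none was called in either direction by edgeR, 3 had an unadjusted p under 0.05, and the median log2 fold change was 0.00. The lowest p among them belonged to Nudt21, a subunit of the cleavage factor that selects polyadenylation sites. Its normalized counts were 173, 199 and 184 in scramble and 237, 263 and 237 in knockdown, without overlap, with a log2 fold change of 0.41 ± 0.118 (SE) and an edgeR adjusted p of 0.065. The summed level of the 18 genes ranged from 14542 to 15862 in scramble and from 14779 to 15917 in knockdown, and these ranges overlapped.

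Of 18 splicing factors of nuclear speckles, the bodies where Malat1 gathers, 1 was called higher and 1 lower, and 5 had an unadjusted p under 0.05. The median was -0.08. Srsf3 rose, from 488, 589 and 599 normalized counts in scramble to 860, 722 and 706 in knockdown (log2 fold change 0.45 ± 0.113 (SE), edgeR adjusted p = 0.04). Srsf4 fell, from 344, 341 and 412 to 267, 255 and 251 (-0.51 ± 0.113 (SE), edgeR adjusted p = 0.0274). Both encode serine and arginine-rich proteins that help to choose splice sites.

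The RNase P and RNase Z genes, whose products cut the 3′ ends of Malat1 and of long Neat1 and trim the tRNA-like RNAs, held no called gene among 10 tested by edgeR, and none had an unadjusted p under 0.05. Their median log2 fold change was -0.02. Rpp21, an RNase P subunit, had the lowest p, with 106, 74.6 and 96.8 normalized counts in scramble and 51.5, 71.3 and 83.3 in knockdown (-0.43 ± 0.221 (SE), edgeR adjusted p = 0.272).

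Genes next to Neat1 and Malat1 on chromosome 19 were not called either, with 0 of 12 tested by edgeR, 3 with an unadjusted p under 0.05 and a median of 0.01. In 5 of the 12 the groups did not overlap, each of them with the knockdown group higher, where 28.9% of all genes tested did not overlap in either direction. The lowest p was that of Slc25a45, a mitochondrial carrier gene 32329 bases from the 5′ end of Neat1. It had 264, 337 and 283 normalized counts in scramble and 483, 436 and 338 in knockdown, with the groups nearly touching (0.51 ± 0.145 (SE), edgeR adjusted p = 0.0625). Frmd8, the first coding gene upstream of Neat1, had 266, 304 and 256 in scramble and 412, 315 and 304 in knockdown (0.32 ± 0.136 (SE), edgeR adjusted p = 0.183).

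Of 28 other lncRNAs tested, 1 was called higher and 1 lower, 11 had an unadjusted p under 0.05, and the median was -0.06. Pvt1, a lncRNA beside the Myc gene, rose from 61.6, 65.9 and 67.1 normalized counts in scramble to 160, 140 and 101 in knockdown (1.04 ± 0.197 (SE), edgeR adjusted p = 0.0136). Ftx, from the X inactivation centre, fell from 149, 142 and 184 to 102, 115 and 92.4 (-0.62 ± 0.16 (SE), edgeR adjusted p = 0.045). None of the 28 had a log2 fold change below -1.39. Neat1 stood at -1.85, but it was chosen for that difference, so its place beside them is not a test.

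Neat1 is known to respond to p53, heat shock and low oxygen, and the targets of these responses were read beside it. Of 12 p53 targets, 1 was called higher and none lower, 3 had an unadjusted p under 0.05, and 11 of the 12 had log2 fold changes above 0 (median 0.24). The called gene was Btg2, an antiproliferative gene, which rose from 193, 147 and 196 normalized counts to 334, 374 and 392 (1.04 ± 0.134 (SE), edgeR adjusted p = 0.00283). Of 12 heat shock targets, 3 were called higher and 1 lower, and 7 had an unadjusted p under 0.05. Log2 fold changes were above 0 in 6 and below 0 in 6 (median 0.01). The 3 that rose were chaperones, Hspd1 (0.53 ± 0.109), Hspe1 (0.69 ± 0.124) and Hsp90aa1 (0.79 ± 0.194 (SE)), the last with an edgeR adjusted p of 0.0493. The co-chaperone Bag3 fell (-0.44 ± 0.115 (SE), edgeR adjusted p = 0.0452).

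The hypoxia targets had 1 called lower of 9 tested and none called higher, 6 with an unadjusted p under 0.05, and a median of -0.37. Ndrg1 fell from 251, 265 and 300 normalized counts in scramble to 155, 148 and 178 in knockdown (-0.76 ± 0.127 (SE), edgeR adjusted p = 0.009).

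**Figure D4:**
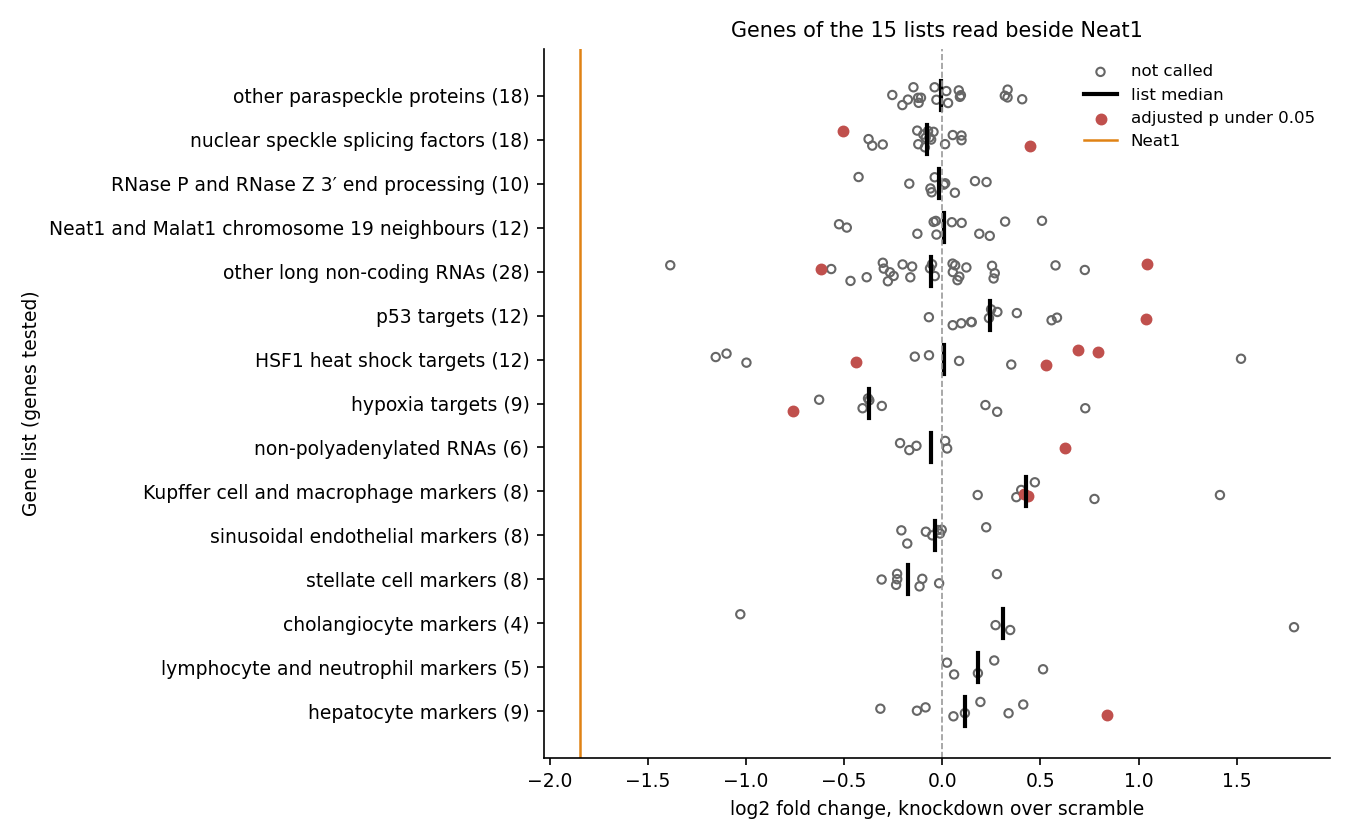
Log2 fold changes, knockdown over scramble, of the genes tested in the 15 lists, with filled red points for an edgeR adjusted p under 0.05, open points for the rest, a black bar for each list's median and an orange line for Neat1. The orange line marks the gene whose difference chose the set, so its place beside the lists is not a test. Of 167 tested entries, 14 are filled, where 6.32% of all genes tested were called.

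The calls in these and the following lists depended on the scaling, filter and test and on single libraries. With all libraries kept, 6 of the 14 called genes (Pvt1, Btg2, Hspd1, Hspe1, Ndrg1 and Serpina1e) passed under all 7 other scalings, filters and tests. The other 8 (Srsf3, Srsf4, Ftx, Hsp90aa1, Bag3, Rmrp, Adgre1 and Clec4f) lost their call under at least 1 of them, with adjusted p from 0.0514 to 0.165. Without scramble replicate 3, 1 of the 14 called genes remained called (Btg2, adjusted p = 0.0244), and the adjusted p of the other 13 ranged from 0.0742 to 0.219. The number that remained called was 8 without scramble replicate 1, 4 without scramble replicate 2, 7 without knockdown replicate 1, 4 without knockdown replicate 2 and 12 without knockdown replicate 3.

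RNAs without a poly(A) tail were checked, because the labels describe depletion of ribosomal RNA and the methods a poly(A) kit, and because the long Neat1 isoform and Malat1 lack a usual tail. They were abundant in every library and took 1.00% to 1.28% of the gene counts. Rn7sk, a small nuclear RNA that holds back transcription elongation, alone held 130093 to 171838 normalized counts. Of 6 such RNAs tested, Rmrp, the RNA of RNase MRP, rose from 16113, 15089 and 13693 to 17330, 24580 and 27469 normalized counts (0.63 ± 0.158 (SE), edgeR adjusted p = 0.0428). The list median was -0.06, with 0 called lower and 1 at an unadjusted p under 0.05.

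Markers of other liver cells moved with the groups in part. All 8 Kupffer cell and macrophage markers had values above 0 on the log2 scale (median 0.43), 2 were called higher, and 7 had an unadjusted p under 0.05. Their summed normalized counts ranged from 2913 to 3532 in scramble and from 3714 to 4776 in knockdown, with no defining marker at 0. Clec4f, a Kupffer cell lectin, rose by 0.44 ± 0.103 (SE, edgeR adjusted p = 0.0327), and Adgre1, which encodes F4/80, by 0.41 ± 0.111 (SE, edgeR adjusted p = 0.0485), the latter called in 3 of 14 alternatives. No marker was called among 8 sinusoidal endothelial, 8 stellate, 4 cholangiocyte and 5 lymphocyte and neutrophil genes tested by edgeR, none of them with an unadjusted p under 0.05. The lowest p values there were those of Fcgr2b (-0.21, adjusted p = 0.217), Dcn (-0.23, adjusted p = 0.253), Spp1 (1.79, adjusted p = 0.274) and Ms4a1 (0.51, adjusted p = 0.48). Their summed ranges overlapped between the groups for the endothelial (5712 to 6274 and 5329 to 6147), stellate (6396 to 8284 and 5718 to 7770) and lymphocyte and neutrophil genes (75.7 to 100 and 95.1 to 111), but not for the cholangiocyte genes (583 to 697 in scramble and 837 to 2546 in knockdown). The cholangiocyte difference rested on Spp1, at 319, 282 and 293 normalized counts in scramble and 2161, 426 and 513 in knockdown. Without Spp1 the sums were 301 to 378 in scramble and 324 to 493 in knockdown, with overlap, and Spp1 without knockdown replicate 1 was at 0.65 (adjusted p = 0.0148). Of the neutrophil markers, which were too low to be tested, Ly6g was at 0 in every library. S100a8 had 1.03, 1.10 and 2.20 normalized counts in scramble and 6.68, 10.5 and 3.62 in knockdown, and S100a9 had 2.05, 1.10 and 0 in scramble and 11.4, 8.55 and 5.43 in knockdown, both without overlap. Of 9 hepatocyte markers, Serpina1e, a serine protease inhibitor gene with near-identical copies, rose by 0.84 ± 0.169 (SE, edgeR adjusted p = 0.0189), and the others were not called. In that list 3 had an unadjusted p under 0.05. The part of these cell markers in the value of Neat1 was not tested.

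The genes whose pattern over the 6 libraries was nearest to that of Neat1 were found by the root mean square difference of mean-centred log2 CPM, among 12912 genes with an average log2 CPM of at least 1. The median distance of all those genes was 0.954. The 10 nearest were Pitx3 (0.151), Gm53254 (0.194), Sfn (0.196), Cst6 (0.208), Cdsn (0.223), Pkp1 (0.231), Trim29 (0.239), Elovl4 (0.265), Gm36317 (0.273) and Dsc1 (0.288). All were lower in knockdown without overlap, as this choice favours. Pitx3, a homeobox gene known from the lens and from dopamine neurons, had 369, 405 and 452 normalized counts in scramble and 114, 128 and 136 in knockdown, and Sfn, which encodes stratifin of stratified epithelia, had 76.9, 96.6 and 99.0 in scramble and 20.98, 25.7 and 29.9 in knockdown. Several others are genes of the epidermis, such as Cdsn (corneodesmosin), Pkp1 (a plakophilin) and Dsc1 (a desmocollin).

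Epidermal, hair follicle and skeletal muscle markers were therefore read as well, from lists added after this pattern was seen, and no test was made on them. The 14 epidermal markers summed to 1952, 2271 and 1871 normalized counts in scramble replicates 1, 2 and 3 and to 637, 772 and 687 in knockdown replicates 1, 2 and 3. All 14 had a lower mean in knockdown, and in 13 the groups did not overlap. Krt5, a keratin of the basal epidermis, had 267, 419 and 355 in scramble and 91.5, 118 and 127 in knockdown. The 4 hair follicle markers summed to 1695, 2104 and 2908 in scramble and to 24.8, 24.7 and 613 in knockdown. The 9 muscle markers summed to 1334, 4876 and 2714 in scramble and to 1557, 1328 and 586 in knockdown, with overlap.

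In every library the summed epidermal markers came to 2.18% to 3.64% of the normalized counts of Neat1. The hair follicle sum came to 0.116% to 3.39% of those counts and the skeletal muscle sum to 1.72% to 8.23%, so those shares varied widely between libraries. None of these shares was corrected for length, so they do not compare levels between genes. Knockdown replicate 3 held far more of the hair follicle sum than the other 2 knockdown libraries, and its Neat1 level was 22740 against 18930 and 21210. Within the scramble group Neat1 was lowest in replicate 2, where the epidermal sum was highest. The mean epidermal sum was 2031 in scramble and 699 in knockdown, and the mean hair follicle sum was 2236 and 221. For skeletal muscle the means were 2975 in scramble and 1157 in knockdown. The part of these markers in the value of Neat1 was not tested.

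**Figure D5:**
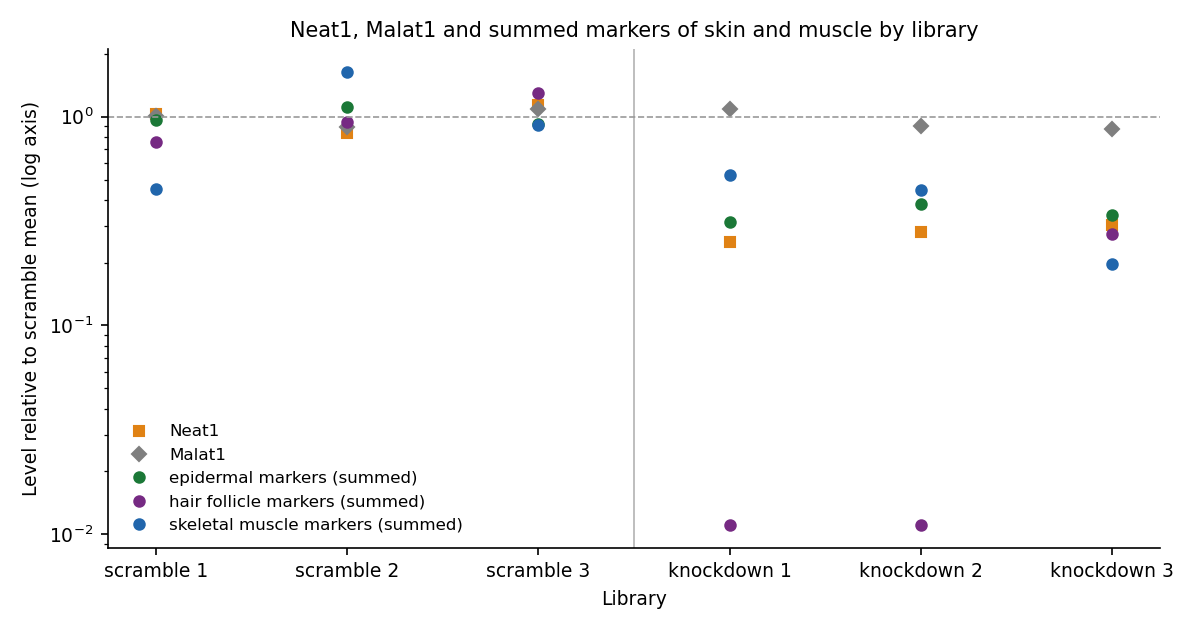
Level in each library divided by the scramble mean (log axis), for Neat1 (squares), Malat1 (diamonds) and the summed normalized counts of epidermal, hair follicle and skeletal muscle markers (circles). Neat1 and the epidermal sum lie below the scramble points in all 3 knockdown libraries, Malat1 stays near the dashed line at 1, and the hair follicle sum is at 24.8, 24.7 and 613 normalized counts in knockdown replicates 1, 2 and 3.

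Promoter letters were searched on both strands in the RefSeq windows of GRCm38.p6, from 250 bases before to 50 after each start, for the 7 members listed there (Neat1 has no entry). CCAAT stood in 5 of the 7 (Sfpq, Nono, Pspc1, Rbm14 and Hnrnpk), against 37.4% of 32851 promoters. TGACG, the core of the cAMP response element, stood in Malat1, Rbm14 and Hnrnpk, against 20.8% of promoters, and 3 times in that of Malat1. The letters of the TATA box, the E-box, the heat shock element, the GAS element and the ISRE core stood in none of the 7 windows. ACGTG, the core of the hypoxia response element, stood in that of Malat1 alone, against 19.6% of promoters. These matches describe letters and not bound sites.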

How the data were processed

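The authors trimmed reads with Trimmomatic, aligned them to the mouse genome with STAR (GRCm38 in the methods, GRCm39 in the submitters' processing notes) and deposited raw counts of uniquely mapped exonic reads per gene from featureCounts. They also deposited TPM values, which the authors computed from those features, and their normalized counts, which the authors made as a scaled signal per library. A further deposited table holds the authors' log2 fold changes and p-values, which were not used. The strand setting is not given in the sources used here, and unique mapping understates genes with near-identical copies. The library kit differs between the labels (ribosomal RNA depletion) and the methods (poly(A) selection).

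Raw counts without the 92 ERCC rows were fitted with edgeR 4.0.16 in R 4.3.3 (TMM, filterByExpr, robust quasi-likelihood, group as the only term), and calls used an adjusted p under 0.05 over 16327 genes. Alternatives used DESeq2 1.42.0 and voom of limma 3.58.1. The code was tested on simulated data. Gene totals of 14704746 to 19462398 left most of the error of abundant genes to differences between mice (biological coefficient of variation 13.9%), and the chi-square per gene between mice of one group was 7.10 to 28.7, well above sampling noise. Samples were grouped by their labels. Of the table's genes, 37492 of 40803 were found by symbol in RefSeq GRCm38.p6, so positions apply to that build and not to the counting itself. Genes named were the 8 members, Hnf1aos1, the called genes of 15 lists or, in a list without any, the one with the lowest p, and the 10 genes nearest to Neat1 in profile. Frmd8, Scd1, Alb, Rn7sk, Hspa1a, Hspa1b, Hspa8, Hspb1 and the added marker genes were named after their values were seen. The members and lists were chosen with earlier results of these data known.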

Additional observations from a re-analysis of the deposited data

How the results depend on the processing

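Each of the 8 members was recomputed under 16 alternatives. Neat1 stayed lower in knockdown in all of them, from -1.97 to -1.64 on the log2 scale, the last with spike-in library sizes, and none called Malat1, Sfpq, Nono, Rbm14 or Tardbp. Under spike-in sizes Malat1 (0.14) and Sfpq (0.0596) turned sign, and Pspc1 (0.47) and Hnrnpk (0.31) were called; the shift of all genes by 0.20 is part of that scaling. Nono turned sign with library totals (-0.0665), a minimum mean of 50 counts (-0.0268) and TPM (-0.0716), as did Tardbp (-0.0397, -0.000724 and -0.0476), and Hnrnpk moved to 0.0273 with TPM. Leaving out single libraries gave -0.0151 to 0.0272 for Nono and -0.0273 to 0.0702 for Tardbp. These values lie near 0, and the cause was not tested.

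Over all genes, 505 were called higher and 527 lower. Calls higher numbered 319 with library totals, 3033 with spike-in sizes and 870 without a filter, and calls lower 729, 360 and 1032. The list calls, 14 in all, became 40 with spike-in sizes, 33 without a filter and 9 with voom. Leaving out single libraries gave 38 to 1015 calls higher, 65 to 866 lower and 1 to 31 in the lists, lowest without scramble replicate 3 and highest without knockdown replicate 3. Hnf1aos1 was called without a filter, by DESeq2 and voom, without knockdown replicate 3 and in the replicate block fit (adjusted p 0.000261 to 0.218 over its alternatives).

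The replicate numbers are shared by the groups, but same-numbered libraries did not deviate together (r = -0.0226, 0.0231 and 0.0032). With the replicate block, Neat1 was at -1.84 and Malat1 at -0.07, 429 genes were called higher and 449 lower, and no member's call changed, while Srsf3, Ftx, Bag3, Rmrp and Adgre1 lost theirs. The Malat1 to Neat1 difference of 1.77 was the same from raw counts and 1.60 to 1.89 without single libraries, and the spike-in share differed by -0.31 to -0.24 on the log2 scale. With 3 mice per group, depth was not what limited the abundant members, and isoforms were not resolved.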
